A study of Mus musculus with 6 samples.

Results

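The 10 genes described here, which immunologists commonly read as marks of monocytes and macrophages, were followed in spleen type 2 conventional dendritic cells (cDC2s) with and without the transcription factor IRF4. They are Lyz2, Treml4, S100a4, Cd14, Emr1, Fn1, Cd36, Ly6c2, Tmem176a and Tmem176b, taken by symbol as 10 of the 14535 rows of the deposited count table. RNA-seq libraries came from C57BL/6 mice, 3 from wild-type (WT) mice and 3 from CD11c-Cre Irf4fl/fl mice, called IRF4-deficient below. In the latter, Cre recombinase driven by the promoter of CD11c (Itgax) removes the loxP-flanked part of Irf4 in cells that express CD11c, which includes some macrophages and monocyte-derived cells beside dendritic cells. The labels name no agent, no age, no sort gate and no control group that carries Cre alone, so loss of IRF4 and presence of the Cre transgene cannot be told apart. They also do not say whether the libraries came from separate mice, so the tests capture variation among 6 libraries that may be technical replicates.

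Dendritic cells and monocytes arise from shared myeloid progenitors. IRF4 supports the development and migration of cDC2s, while IRF8 and KLF4 act in both monocyte and dendritic cell development. Classical monocytes display the Ly6C antigen, of which Ly6c2 encodes one form, together with the chemokine receptor CCR2. Non-classical, patrolling monocytes carry little Ly6C and high CX3CR1. Genes of this kind are not exclusive to monocytes: splenic cDC2s in mice are known to contain cells with lysozyme, CX3CR1 and CSF1R, and Tmem176a and Tmem176b are well known from dendritic cells.

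Total counts were 7949462 to 10609420 in IRF4-deficient and 7421605 to 11459920 in WT libraries. Irf4 itself lay at 90.8, 65.3 and 84.0 CPM (counts relative to the scaled library total) in the IRF4-deficient libraries and at 292, 296 and 345 CPM in the WT libraries, a 3.89-fold lower mean, so each library matched its label. These counts per library size use edgeR's TMM factors. A gene is called higher or lower, always in IRF4-deficient relative to WT libraries, at an adjusted p under 0.05 in edgeR's quasi-likelihood test over 11934 genes. Summed CPM of 8 general cDC markers was 28340 to 29310 in IRF4-deficient and 32070 to 35690 in WT libraries. Most of it came from Cd74 (means of 12050 and 13990 CPM), H2-Aa (8573 and 10580) and H2-Ab1 (5184 and 6157). Sums of unlike genes do not rank cell types. Of the 8 markers, 7 were called lower (5 to 7 without single libraries) and 1, Itgax, higher. Zbtb46 was at 42.3 ± 4.14 against 81.0 ± 6.82 CPM and Flt3 at 250 ± 13.2 against 412 ± 15.7 CPM. A list of 12 red pulp macrophage genes summed to 1652, 2392 and 3158 CPM in IRF4-deficient libraries 1, 2 and 3 and to 990 to 1311 CPM in WT libraries. Of those 12 genes, 7 were called higher and 0 lower (0 lower also at an unadjusted p under 0.05, by DESeq2 and by limma-voom), and the number called higher was 11 without IRF4-deficient library 1, 4 without library 2, and 3 without WT library 1. In bulk libraries, fewer cells of a type and less RNA per cell cannot be told apart.

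The start regions of members that have a close neighbour in the genome are shown first, since their counts are compared within each library further on. RefSeq promoter windows on GRCm38.p6, from 250 bases before to 50 bases after the annotated start, were used for 7 of the 10 members. Lyz2 and Lyz1 are adjacent genes for lysozymes whose windows were identical at 249 of 298 aligned bases (83.6%). Capitals mark the 51 bases of each that did not match, and few of them lie near the start. The Lyz2 window is chr10:117282223-117282522 on the minus strand, and that of Lyz1 is chr10:117292819-117293118, also on the minus strand.
Lyz2: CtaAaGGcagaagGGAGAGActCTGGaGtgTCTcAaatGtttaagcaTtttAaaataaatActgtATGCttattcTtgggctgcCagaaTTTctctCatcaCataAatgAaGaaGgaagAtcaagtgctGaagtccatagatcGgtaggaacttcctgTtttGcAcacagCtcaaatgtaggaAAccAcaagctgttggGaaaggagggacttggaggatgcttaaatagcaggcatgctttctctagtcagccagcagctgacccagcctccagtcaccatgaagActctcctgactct
Lyz1: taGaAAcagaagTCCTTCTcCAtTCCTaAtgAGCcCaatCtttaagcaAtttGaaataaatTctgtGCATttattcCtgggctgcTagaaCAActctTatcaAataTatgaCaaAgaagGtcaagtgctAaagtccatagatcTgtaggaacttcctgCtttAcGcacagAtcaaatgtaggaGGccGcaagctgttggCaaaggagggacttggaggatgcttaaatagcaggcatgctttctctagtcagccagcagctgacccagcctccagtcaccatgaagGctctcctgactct
Tmem176a and Tmem176b lie head to head on opposite strands and overlap by 578 bases (GENCODE M21, GRCm38, chr6:48840919-48841496). The Tmem176a window, chr6:48841233-48841532 on the plus strand, is shown with the 264 bases that belong to both annotated genes in capitals.
Tmem176a: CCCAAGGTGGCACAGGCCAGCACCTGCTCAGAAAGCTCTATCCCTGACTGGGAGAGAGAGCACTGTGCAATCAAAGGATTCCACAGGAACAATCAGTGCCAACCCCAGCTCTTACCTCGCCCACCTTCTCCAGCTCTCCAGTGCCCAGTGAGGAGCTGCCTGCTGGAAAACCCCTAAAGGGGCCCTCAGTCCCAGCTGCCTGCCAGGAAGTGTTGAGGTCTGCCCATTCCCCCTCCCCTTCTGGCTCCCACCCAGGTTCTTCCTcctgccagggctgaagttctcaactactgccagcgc
In the S100a4 window, chr3:90603520-90603819 on the plus strand, capitals mark the reverse complement of GAGGAAGT, a sequence bound by the myeloid factor PU.1, which starts 18 bases after the annotated start.
S100a4: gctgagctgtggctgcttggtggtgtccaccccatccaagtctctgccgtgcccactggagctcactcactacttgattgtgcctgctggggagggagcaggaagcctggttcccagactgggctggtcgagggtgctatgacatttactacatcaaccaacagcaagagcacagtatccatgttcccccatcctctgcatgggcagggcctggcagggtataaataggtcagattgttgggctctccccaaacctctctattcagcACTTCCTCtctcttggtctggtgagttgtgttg
Searched on both strands, GAGGAAGT occurs in 3.20% of 32851 windows of this length. Ly6c2 also held it, with 2 copies in a window. An IRF and ETS composite sequence, GGAA and GAAA with 2 bases between them (2.72% of windows), and an interferon-type repeat, GAAA and GAAA with 2 bases between them (3.44%), were in none of the windows of those 7 members. These 2 can overlap one another, and a match or its lack is a description of these letters in this window. Sequences of the C/EBP type (10.8% of windows) and the AP-1 type (7.81%) were also searched and were in none of the member windows. The Lyz1 window held the C/EBP-type sequence.

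All 10 members passed the filter on low counts, and they did not move as a block. Lyz2, Treml4, S100a4, Cd14 and Fn1 were called higher, Emr1, Tmem176a and Tmem176b were called lower, and Cd36 and Ly6c2 were not called. Over all tested genes, 9.87% were called higher, 10.5% lower and 20.4% in either direction. The members had a median log2 fold change of 0.94, against 0.00 for all tested genes, and single members ran from −0.71 for Tmem176b to 1.67 for Treml4. In 7 of the 10 the 3 IRF4-deficient libraries did not overlap the 3 WT libraries, as was so for 35.6% of all tested genes. Per library, the members' CPM summed to 2589, 2634 and 2721 in IRF4-deficient and to 2008, 2015 and 1856 in WT libraries. Lyz2 and S100a4 made up most of that sum in IRF4-deficient libraries, 59.9% to 67.0%, and 37.5% to 45.6% in WT libraries.

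**Figure D1:**
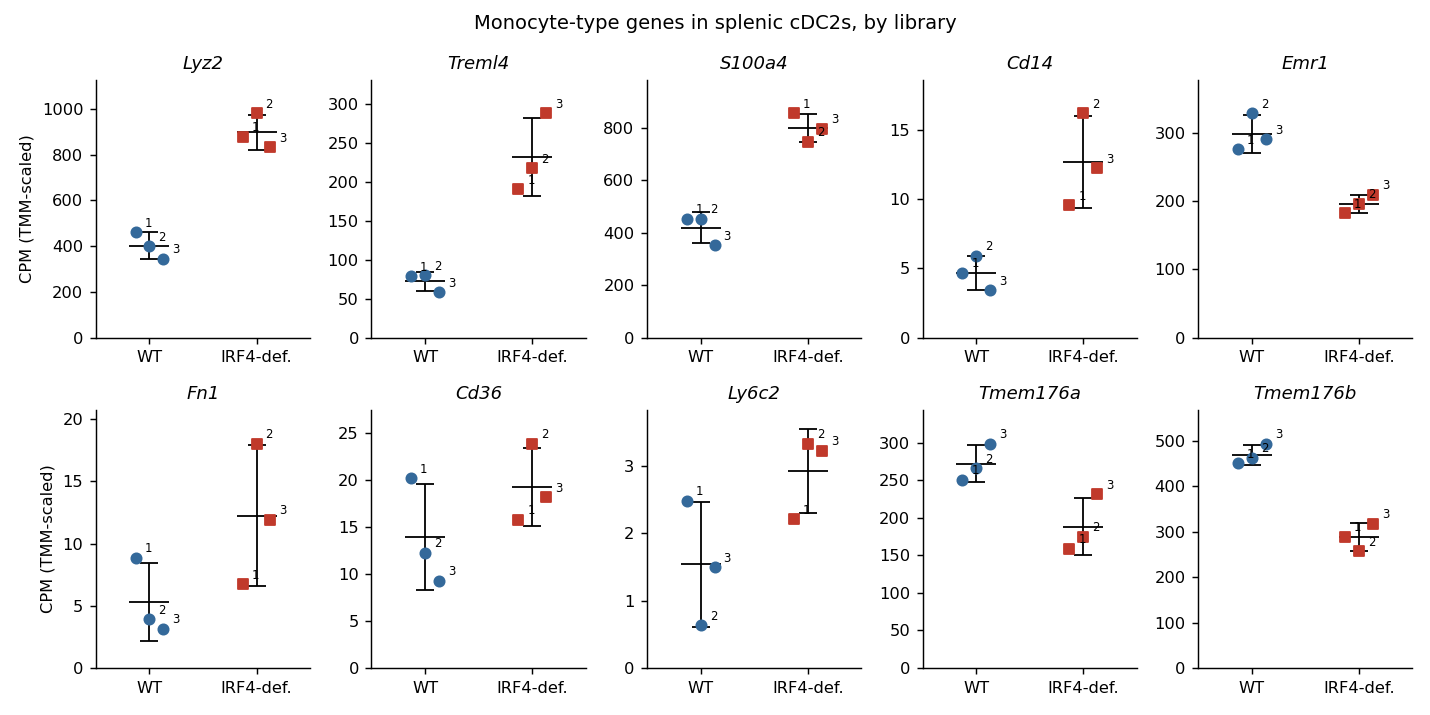
CPM of each of the 10 genes in each library (TMM-scaled, linear axis from 0; every panel has its own scale; points are libraries, numbered by replicate, and lines are the group mean and ± 1 SD). The IRF4-deficient points lie above all WT points for Lyz2, Treml4, S100a4 and Cd14 and below them for Emr1, Tmem176a and Tmem176b. For Fn1, Cd36 and Ly6c2 the ranges of the groups overlap.

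Levels can be compared between genes only per length, here as mean CPM per kilobase of the longest coding transcript. In WT libraries the order on this scale was S100a4 (842 ± 119, SD, n = 3), Lyz2 (306 ± 44.3), Tmem176b (285 ± 13.5), Tmem176a (177 ± 16.0), Emr1 (92.0 ± 8.39), Treml4 (41.7 ± 6.93), Cd36 (4.10 ± 1.66), Cd14 (2.85 ± 0.76), Ly6c2 (1.88 ± 1.13) and Fn1 (0.64 ± 0.37). The libraries of Lyz2 and Tmem176b overlapped, as did each neighbouring pair from Cd36 down to Fn1. In IRF4-deficient libraries S100a4 (1604 ± 109) and Lyz2 (682 ± 57.5) again came first, and Lyz2 no longer overlapped Tmem176b. Treml4 (133 ± 28.8) now stood between Tmem176b (175 ± 18.7) and Tmem176a (122 ± 24.8), whose libraries it overlapped on both sides. Thus 6 of the members are well-expressed genes in both groups, while Cd14, Cd36, Fn1 and Ly6c2 are at a low level in both. Ly6c2, at a mean of 1.54 CPM, exceeded only 3.79% of tested genes in WT libraries, and Lyz2 exceeded 97.0%.

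Secreted and intracellular effector genes are described first, then surface receptors. Lyz2 encodes lysozyme M, the secreted enzyme of monocytes, macrophages and granulocytes that cuts bacterial cell walls, and lies at chr10:117277331-117282321 on the minus strand. It measured 879, 980 and 833 CPM in the IRF4-deficient libraries and 462, 401 and 345 CPM in the WT libraries. The lowest IRF4-deficient library stood well above the highest WT library. The means, 897 ± 75.6 and 402 ± 58.3 CPM (SD, n = 3 each), differ 2.23-fold, with a log2 fold change of 1.16 (SE 0.099, edgeR adjusted p = 1.6e-07). Lyz2 was as high in IRF4-deficient library 1, whose red pulp macrophage sum was nearest to WT, as in library 3, where that sum was highest.

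S100a4 encodes a small calcium-binding protein linked to cell motility and abundant in monocytes and other migrating cells. It lies at chr3:90603771-90606045 on the plus strand. It read 854, 746 and 796 CPM in IRF4-deficient and 454, 453 and 351 CPM in WT libraries, again with a clear gap between the groups. Its log2 fold change was 0.93 (SE 0.097, edgeR adjusted p = 1.3e-06), a 1.91-fold higher mean. An annotated read-through gene, Gm42674, shares 2115 bases and the strand with S100a4 and is not a row of the table, so how reads common to both were counted is unknown. The S100 family list holds 11 other genes, one of which, S100pbp, encodes an S100-binding protein rather than a relative, and 5 of them passed the filter. S100a6, a neighbour of S100a4 in the same gene cluster, was 1.32-fold higher at 194 ± 8.25 against 147 ± 20.7 CPM, a call that was lost without WT library 2 (adjusted p = 0.0538) or WT library 3 (0.0689). S100a10, S100a11 and S100pbp were called lower, at 1.70-fold, 1.26-fold and 1.49-fold lower means. The calls of S100a10 and S100a11 were lost without WT library 1 (adjusted p = 0.0814 and 0.0717) or without WT library 2 (0.0657 and 0.0661). S100a10 also lost its call without IRF4-deficient library 3 (0.0597), and S100a11 without IRF4-deficient library 1 (0.0543) or 2 (0.0893). S100a8, an abundant granule protein of neutrophils and classical monocytes, had a mean under 1 CPM over the 6 libraries and was too low to test. Its counts were 1, 2 and 0 in IRF4-deficient and 9, 37 and 3 in WT libraries.

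Fn1 encodes fibronectin, a matrix glycoprotein that monocytes and macrophages can secrete, at chr1:71585520-71653200 on the minus strand. It was sparse, at 6.72, 18.0 and 11.9 CPM in IRF4-deficient and 8.85, 3.91 and 3.14 CPM in WT libraries. WT library 1 exceeded IRF4-deficient library 1, so the groups overlapped. The call sat at the threshold, with a log2 fold change of 1.21 (SE 0.41) and an edgeR adjusted p of 0.04996, and it was lost in 10 of 16 alternative fits. Without IRF4-deficient library 2 the adjusted p was 0.218, without library 3 it was 0.103, and without WT library 2 or 3 it was 0.193 or 0.157. An antisense gene, Apol7d, overlaps 364 bases of Fn1, and the strand setting of the counting is unknown.

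Receptors for fibronectin were read from a list of 8 integrin subunits and CD44, of which 5 were called higher and 1 lower, with a median log2 fold change of 0.57. Itgb3, the integrin beta 3 subunit, was at 172, 218 and 197 CPM in IRF4-deficient and 37.6, 39.4 and 33.3 CPM in WT libraries. Its mean was 5.32-fold higher (log2 fold change 2.41, SE 0.12). Itgb3 is also a platelet gene. Ppbp, Itga2b and Gp9, other platelet and megakaryocyte genes, each had a mean under 1 CPM, and the part of platelet RNA was not tested. Itgb7, which pairs with alpha 4 in gut homing, was 1.58-fold higher, Itga5, the alpha chain of the classical fibronectin receptor, 1.82-fold higher, Cd44 1.41-fold higher and Itga8 2.90-fold higher. Once the red pulp index was in the model 2 of the list were called higher, and Itga5 (adjusted p = 0.241), Cd44 (0.861) and Itga8 (0.36) were not. Over the fits with all libraries, this one included, the log2 fold change of Itga5 was at least 0.74 (0.88 without the index). That of Itga8 was at least 1.05 (1.54), and that of Cd44 fell as low as 0.08 (0.49). Itga4, the alpha 4 subunit, was 1.61-fold lower, at 1776 ± 270 against 2861 ± 316 CPM.

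Among surface receptors, Treml4, a receptor of the TREM family that binds dying cells and amplifies TLR7 signalling, lies at chr17:48264295-48275360 on the plus strand. It is known from spleen macrophages, non-classical monocytes and some dendritic cells. Its values were 191, 218 and 288 CPM in IRF4-deficient and 79.0, 80.3 and 58.7 CPM in WT libraries. No library overlapped, and IRF4-deficient library 3 was the highest. The mean was 3.20-fold higher, with the largest log2 fold change among the 10 members, 1.67 (SE 0.16, edgeR adjusted p = 3.8e-06), which exceeded that of 98.1% of tested genes. The order of the IRF4-deficient libraries was the same for Treml4 as for the red pulp macrophage sum. With an index of those 12 genes as a covariate the log2 fold change was 1.06 (adjusted p = 0.00056), more than 1.5 times smaller as a fold.

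Other TREM receptors and their adaptors and kinase were read from a list of 8, of which 6 were tested, 3 of them receptors. Of the 6, 4 were called higher and 0 lower (0 lower also at an unadjusted p under 0.05, by DESeq2 and by limma-voom). Without IRF4-deficient library 1 or WT library 3, only 2 were called higher, and with the red pulp index in the model only Treml2 was. The median log2 fold change was 0.85. Treml2, a TREM-like receptor of B cells and myeloid cells, had the largest ratio of means in the list, with 24.7, 26.3 and 38.5 CPM in IRF4-deficient and 3.46, 4.36 and 5.74 CPM in WT libraries, a 6.60-fold higher mean. Trem1, which amplifies inflammatory signals in monocytes and neutrophils, was low in both groups at 6.44 ± 2.04 and 1.97 ± 0.46 CPM. Trem3, at 6.875 ± 2.504 and 2.562 ± 1.177 CPM, lost its call without IRF4-deficient library 1 (adjusted p = 0.0702) or 3 (0.0907) or WT library 3 (0.1). Syk, the kinase downstream of the TREM adaptors, was 1.19-fold higher, a call lost when any one library other than IRF4-deficient library 3 was left out (adjusted p 0.0535 to 0.128). The adaptor Tyrobp (DAP12), through which Trem1 and Trem3 signal, was at 588 ± 24.5 and 515 ± 57.3 CPM and was not called.

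Cd14 encodes the co-receptor that hands lipopolysaccharide to TLR4 and is a standard surface mark of monocytes. It lies on chromosome 18 at chr18:36725067-36726798, minus strand. Its counts were few, 104, 131 and 110 in IRF4-deficient and 34, 65 and 25 in WT libraries, or 9.57, 16.2 and 12.3 against 4.70, 5.91 and 3.42 CPM. The groups did not overlap, and the mean was 2.71-fold higher (log2 fold change 1.41, SE 0.30, 95% interval 0.78 to 2.05, edgeR adjusted p = 0.00198). Adding the red pulp index reduced this to 0.79, with an adjusted p of 0.441. Its partners in the receptor were read beside it. Tlr4 measured 35.4 ± 7.29 and 30.8 ± 1.94 CPM and Ly96 (MD-2), the protein that completes the lipopolysaccharide receptor, 11.02 ± 3.33 and 13.7 ± 0.79 CPM, and neither was called.

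Across the list of 12 CD14 and TLR4 pathway genes, 2 were called higher and 4 lower (2 lower without IRF4-deficient library 1, WT library 1 or WT library 3), with a median log2 fold change of −0.20. In the model with the red pulp index, 1 was called higher and 1 lower. Higher without it were the signalling adaptors Myd88, 1.48-fold higher, and Ticam2, which links TLR4 to the TRIF branch, 1.501-fold higher. Cd180, a TLR4-like receptor of B cells and dendritic cells, was 1.24-fold lower at 647 ± 25.7 against 805 ± 31.3 CPM. Tlr1, a receptor for bacterial lipoproteins, was 1.33-fold lower. Its partner Tlr2 and the adaptor Ticam1 (TRIF) were also called lower, Tlr2 at an adjusted p of 0.0466 that became 0.0522 to 0.167 without any one library other than IRF4-deficient library 2, and Ticam1 at 0.0396, which rose to between 0.105 and 0.188 without IRF4-deficient library 1 or 2 or WT library 1 or 3.

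Cd36, a scavenger receptor that takes up fatty acids and oxidised lipoproteins, lies at chr5:17781690-17888801 on the minus strand. It read 15.7, 23.9 and 18.2 CPM in IRF4-deficient and 20.2, 12.3 and 9.29 CPM in WT libraries, and WT library 1 lay within the IRF4-deficient range. It was not called (log2 fold change 0.47, 95% interval −0.08 to 1.02, adjusted p = 0.239). Without WT library 1 it was, at 0.82 with an adjusted p of 0.0372. With the red pulp index the estimate was 0.00. The interval reaches from near no change to about 2-fold higher, so these libraries do not settle its direction.

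Other genes of lipid uptake and handling, 15 in the list, were called higher in 4 cases (6 without IRF4-deficient library 1) and lower in 1, with a median log2 fold change of 0.56. Msr1, scavenger receptor A, was 2.52-fold higher at 12.02 ± 2.12 against 4.76 ± 0.61 CPM. Abca1, which exports cholesterol, was 2.12-fold higher, Plin2, a coat protein of lipid droplets, 2.16-fold higher and Scarb1, a receptor for high-density lipoprotein, 1.48-fold higher. The tetraspanin Cd9 was 2.82-fold lower, at 20.3, 22.7 and 16.0 against 60.4, 53.8 and 52.2 CPM. Cd68, a lysosomal glycoprotein of macrophages and dendritic cells, was at 440 ± 43.4 and 368 ± 46.2 CPM and was not called. None of the 4 increases was called with the red pulp index added to the model, a fit with fewer residual degrees of freedom in which 402 genes in all were called higher.

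Ly6c2 encodes the Ly6C antigen by which classical monocytes are sorted, at chr15:75108158-75111970 on the minus strand. It was barely present, with 24, 27 and 29 counts in IRF4-deficient and 18, 7 and 11 counts in WT libraries. In CPM these are 2.209, 3.337 and 3.229 against 2.489, 0.636 and 1.502, and WT library 1 again lay within the other group's range. The log2 fold change of 0.96 had a 95% interval of −0.20 to 2.11 and was not called (adjusted p = 0.256). Pooled over libraries, 80 against 36 counts are 2.03-fold apart once scaled for depth (95% interval 1.36 to 3.10), a range that covers counting error only and not the spread between libraries. Its near-identical neighbour Ly6c1 (97.6% of aligned transcript bases) had 7, 5 and 7 against 10, 14 and 3 counts and was too low to test. Of the 9 listed Ly6 relatives, 4 were tested. The abundant Ly6e was at 1294 ± 104 and 1207 ± 197 CPM and was not called, Ly6a (Sca-1) was called lower at 19.1 ± 5.396 against 31.2 ± 4.35 CPM, and 0 were called higher (0 also at an unadjusted p under 0.05, by DESeq2 and by limma-voom). Leaving out IRF4-deficient library 3 or WT library 1 or 2 put the adjusted p of Ly6a at 0.06, 0.0551 and 0.1.

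**Figure D2:**
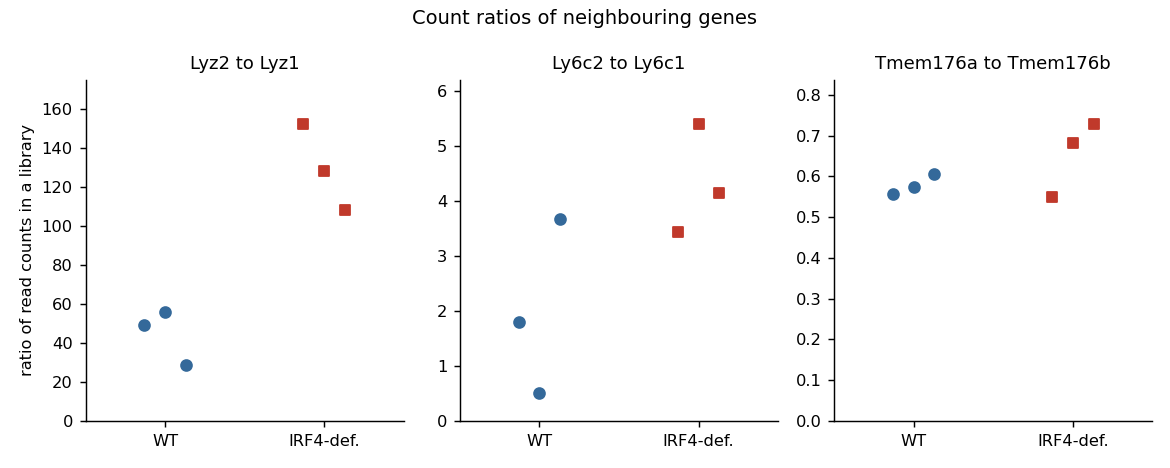
Ratio of the counts of neighbouring genes within each library (linear axis from 0; nothing added to the counts; each point is 1 library). Lyz2 to Lyz1 ran from 108 to 152 in IRF4-deficient and from 28.7 to 55.8 in WT libraries, while the other two ratios overlapped between the groups.

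Because Lyz1 shares 96.0% of aligned transcript bases with Lyz2, reads could have been divided between them, and their ratio within a library was compared. Lyz1, a lysozyme best known from intestinal Paneth cells, was at 5.80, 7.66 and 7.68 CPM in IRF4-deficient and 9.40, 7.18 and 12.02 CPM in WT libraries, and was not called (log2 fold change −0.43, 95% interval −1.04 to 0.17). There were 152, 128 and 108 Lyz2 counts per Lyz1 count in IRF4-deficient and 49.1, 55.8 and 28.7 in WT libraries. The mean log2 ratio differed by 1.58 (exact permutation p = 0.1, two-sided, the smallest that 3 against 3 libraries allow). The ratio of Ly6c2 to Ly6c1 was 3.43, 5.4 and 4.14 against 1.80, 0.50 and 3.67, which overlap (difference 1.47, exact permutation p = 0.2).

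The 3 members that fell were all well expressed. Emr1 (Adgre1) encodes F4/80, the adhesion-type G protein-coupled receptor by which mouse macrophages are identified, and lies at chr17:57358691-57483527 on the plus strand. It measured 182, 196 and 209 CPM in IRF4-deficient and 276, 328 and 290 CPM in WT libraries. The groups were separate, with a 1.52-fold lower mean in IRF4-deficient libraries (log2 fold change −0.61, SE 0.093, edgeR adjusted p = 8.4e-05). Emr1 is expressed by red pulp macrophages as well. Its group mean was lower where that of the red pulp sum was higher, while within the IRF4-deficient libraries its values had the same order as the red pulp sum. With the red pulp index added to the model its log2 fold change was −0.81 (adjusted p = 0.00335).

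The related adhesion receptors did not all go the same way. Of 7 listed, 4 were tested, 1 was called higher and 2 lower. Cd97 (Adgre5), a leukocyte receptor for CD55, was 1.56-fold lower at 924 ± 108 against 1441 ± 73.7 CPM. Emr4 (Adgre4), the closest relative of Emr1 in the list, was 3.59-fold higher at 300, 448 and 545 against 142, 135 and 83.1 CPM. Its adjusted p was 0.0174, and it exceeded the threshold without IRF4-deficient library 2 (0.0663), WT library 1 (0.0532) or WT library 2 (0.0662).

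Tmem176a and Tmem176b encode paired membrane proteins that form cation channels of the endolysosomal system and take part in antigen processing in dendritic cells. Tmem176a (chr6:48840919-48847071, plus strand) was at 159, 175 and 232 CPM in IRF4-deficient and 251, 266 and 299 CPM in WT libraries. Tmem176b (chr6:48833818-48841496, minus strand) was at 290, 257 and 318 against 451, 464 and 494 CPM. For both, every IRF4-deficient library was below every WT library. The means were 1.44-fold and 1.63-fold lower, with log2 fold changes of −0.53 (SE 0.12, edgeR adjusted p = 0.00507) and −0.71 (SE 0.090, edgeR adjusted p = 1.0e-05).

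The start region of both genes was shown above. Of their exon bases only 81 coincide, 2.13% of those of Tmem176a and 3.42% of those of Tmem176b, so reads shared between strands can make up little of either count if coverage is even. Tmem176a gave 0.549, 0.682 and 0.728 counts per Tmem176b count in IRF4-deficient and 0.556, 0.575 and 0.605 in WT libraries. The ratios overlapped, and the mean log2 ratio differed by 0.17 (exact permutation p = 0.4, two-sided). Of their relatives in the MS4A family, 8 of 11 were tested, 2 were called higher (4 without WT library 1) and 1 lower. Ms4a6c and Ms4a6b, myeloid members of unsettled function, were 1.501-fold and 1.28-fold higher, and neither they nor Ms4a1 were called with the red pulp index in the model. Over the fits with all libraries, that one included, the log2 fold change of Ms4a1 stayed between −1.06 and −1.03, so its estimate hardly moved. That of Ms4a6c was at least 0.46 (0.59 without the index) and that of Ms4a6b at least 0.27 (0.36). Ms4a1, which encodes the B cell antigen CD20, was 2.09-fold lower at 11.4 ± 1.62 against 23.7 ± 3.12 CPM, beside a summed B cell marker list of 366 to 427 against 430 to 505 CPM. The part of B cell RNA in the Ms4a1 values was not tested.

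**Figure D3:**
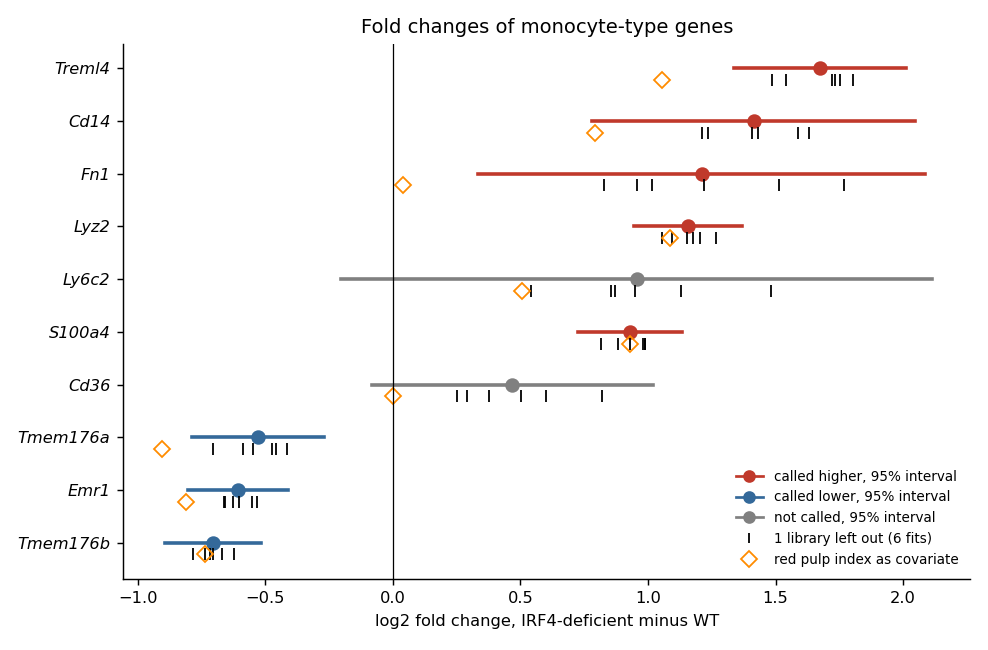
Log2 fold change of each member, IRF4-deficient over WT, with its 95% interval (edgeR, 3 libraries per group). Ticks below each interval are the fits without 1 library, and open diamonds the fit with the red pulp index. The intervals of Cd36 and Ly6c2 include 0, that of Fn1 is wide, and those of the other 7 genes lie clear of 0, 4 above and 3 below.

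Among genes of classical monocytes other than the members, some rose and several defining genes were close to absent. Of 15 listed, 10 were tested, 4 were called higher and 0 lower (1 lower at an unadjusted p under 0.05, 0 by DESeq2 and 0 by limma-voom), with a median log2 fold change of 0.56. Ccr2, the chemokine receptor that lets monocytes leave bone marrow, was at 129, 183 and 188 CPM in IRF4-deficient and 68.5, 52.8 and 41.3 CPM in WT libraries, a 3.07-fold higher mean (log2 fold change 1.62, SE 0.19, and 0.96 with the red pulp index). Gsr, glutathione reductase, was 2.15-fold higher, and S100a6 was described above. Plac8, common to monocytes and other leukocytes, was at 143 ± 10.3 and 131 ± 25.9 CPM, and the interferon-induced Ifitm6 at 139 ± 19.9 and 163 ± 13.8 CPM, and neither was called.

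By contrast F13a1 (coagulation factor XIII), Chi3l3 (Ym1) and Ly6c1 had mean CPM under 1 over the 6 libraries, and Vcan (versican) was at 1.01 ± 0.20 and 1.18 ± 1.27 CPM. F13a1 had 13 counts in all in IRF4-deficient libraries, 10 of them in library 2, and 0 in the WT libraries. Of these, F13a1, Chi3l3 and Vcan are among the most distinctive genes of classical monocytes. With the low Ly6c2, their levels go against a classical monocyte label for the members, which are therefore described by their genes.

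Non-classical monocyte genes made up a list of 15, all tested, of which 7 were called higher and 2 lower, with a median log2 fold change of 0.80. In the model with the red pulp index 5 were called higher. Itgal (adjusted p = 0.255) and Gngt2 (0.561) then lost their calls, and the log2 fold change of Csf1r went from 1.11 to 0.52 and that of Emr4 from 1.84 to 0.85. Cx3cr1, the fractalkine receptor, was at 65.3, 92.1 and 81.5 CPM in IRF4-deficient and 24.9, 18.9 and 12.8 CPM in WT libraries, 4.22-fold higher. Spn (CD43) was at 205, 230 and 227 against 67.6, 60.6 and 54.6 CPM, 3.62-fold higher with a log2 fold change of 1.86 (SE 0.11). Csf1r, the receptor for the macrophage growth factor CSF1, was 2.16-fold higher at 566, 689 and 860 against 334, 351 and 293 CPM. All 3 genes were separate between the groups. Pglyrp1, a secreted peptidoglycan-binding protein, was 1.74-fold higher, and Itgal, the LFA-1 alpha chain, and Gngt2, a G protein subunit, were also called higher.

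Ace, the angiotensin-converting enzyme of patrolling monocytes, had one of the wider ratios but varied strongly within groups, at 237, 371 and 429 against 95.8, 72.6 and 25.5 CPM. Its adjusted p was 0.0562 in edgeR and ranged from 1.53e-05 in limma-voom to 0.531 with the red pulp index, with 0.000326 in DESeq2, 0.0035 without WT library 3 and 0.208 with a replicate block. With the red pulp index its log2 fold change was 1.28, against 2.41. Nr4a1, on which non-classical monocytes depend, overlapped between the groups at 133, 190 and 174 against 151, 136 and 69.1 CPM and was not called. Cd9 and Pou2f2 were the 2 called lower. The call of Pou2f2 was lost without IRF4-deficient library 1 (adjusted p = 0.115) or 2 (0.0743) or WT library 2 (0.107) or 3 (0.0703).

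**Figure D4:**
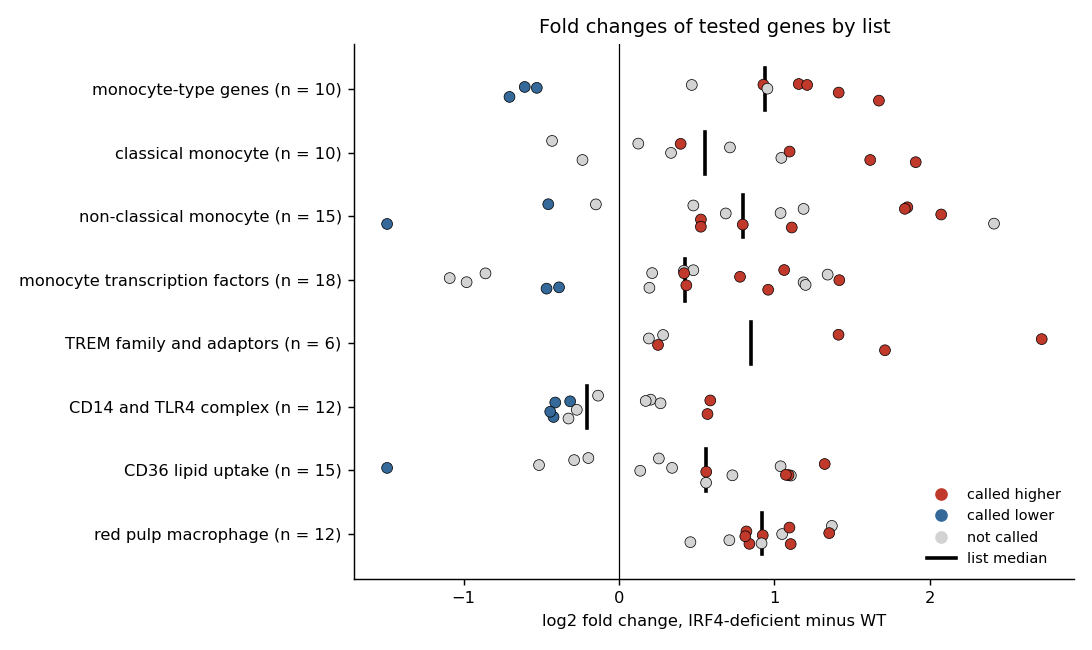
Log2 fold change of each tested gene in the member list, the monocyte lists and the TREM, CD14, CD36 and red pulp lists (IRF4-deficient over WT; points are genes, coloured by call, and bars are list medians). The members run from −0.71 to 1.67, and the median of the non-classical monocyte list, 0.80, is above that of the classical list, 0.56, a difference that was not tested.

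Transcription factors of monocyte development were read from a list of 18, all tested, with 6 called higher, 2 lower (4 lower without WT library 3) and a median log2 fold change of 0.43. Irf8, which directs monocyte and cDC1 development and is the closest relative of Irf4, was at 107, 140 and 134 CPM in IRF4-deficient and 54.5, 39.7 and 48.8 CPM in WT libraries, 2.66-fold higher (log2 fold change 1.42, SE 0.14). Klf4, required for Ly6C-high monocytes, was 2.09-fold higher at 113, 124 and 113 against 71.8, 56.7 and 38.7 CPM. Klf2 was 1.95-fold higher, Zeb2, a repressor active in monocytes and cDC2s, 1.35-fold higher, and Stat3 1.34-fold higher. Bach2 was the sixth. With the red pulp index in the model 2 of the list were called higher and 1 lower, and Klf4 (adjusted p = 0.0968), Klf2 (0.115), Zeb2 (0.936), Bach2 (0.528) and Id2 (0.74) were not called. Over the fits with all libraries, this one included, the log2 fold change of Klf4 was at least 0.86 (1.06 without the index). That of Klf2 was at least 0.66 (0.96) and that of Bach2 at least 0.44 (0.78). Zeb2 fell as low as 0.04 (0.43), and Id2 shrank to as little as −0.15 (−0.39).

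Irf5 and Id2 were the 2 called lower, at 136 ± 16.9 against 188 ± 9.10 CPM and at 132 ± 14.5 against 173 ± 6.75 CPM. Sfpi1, the older symbol of the PU.1 gene, was at 398 ± 29.5 and 344 ± 46.4 CPM and was not called, though it was without WT library 1 (adjusted p = 0.02).

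Markers of other cell types were at varied levels. Of 12 neutrophil genes 8 were in the table, among them S100a8, Camp, Ltf and Lcn2 at means under 1 CPM over the 6 libraries. The list summed to 35.6 to 49.0 CPM in IRF4-deficient and 14.1 to 34.8 CPM in WT libraries, mostly from Csf3r. Eosinophil genes summed to 91.5 to 133 against 37.7 to 47.4 CPM, with Epx under 1 CPM. Of 5 tested, 3 were called higher and 0 lower (2 to 3 higher without single libraries, 1 with the red pulp index). These were Siglec5 (Siglecf in GENCODE M21) at 30.9 ± 6.49 against 1.85 ± 0.80 CPM, Ccr3 at 66.6 ± 17.1 against 34.8 ± 3.71 CPM, and Prg2 at 5.92 ± 0.76 against 2.46 ± 0.96 CPM. The part of eosinophil RNA was not tested. Marginal zone macrophage genes summed to 39.2 to 62.0 against 32.8 to 36.5 CPM. For cDC1 genes the sums were 307 to 417 against 241 to 251 CPM, a list that holds Irf8. T cell genes (33.9 to 46.0 against 30.9 to 41.9 CPM) and NK cell genes (29.5 to 47.5 against 32.9 to 37.6 CPM) overlapped between the groups. So did the sums of erythroid genes (224 to 256 against 191 to 264 CPM) and of plasmacytoid dendritic cell genes (327 to 350 against 301 to 366 CPM). Of 8 tested plasmacytoid genes, 2 were called higher (1 to 3 without single libraries, 0 with the red pulp index), 1 lower and 5 not. Siglech was higher at 7.53 ± 1.21 against 3.17 ± 1.77 CPM and Cox6a2 at 6.19 ± 1.96 against 0.78 ± 0.66 CPM. Ccr9 was lower at 48.0 ± 3.68 against 79.6 ± 15.6 CPM. The part of plasmacytoid dendritic cell RNA was not tested.

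Red pulp macrophage genes were not near 0 in either group, and none of the 12 had a mean under 1 CPM. Vcam1 was at 664, 924 and 1106 CPM in IRF4-deficient and 386, 522 and 344 CPM in WT libraries. Spic, the factor that specifies red pulp macrophages, was at 32.95, 58.5 and 92.8 against 45.5, 34.5 and 32.5 CPM, and its groups overlapped. The index of the 12 genes, their mean centred log2 CPM, was −0.07, 0.56 and 0.85 in IRF4-deficient and −0.39, −0.32 and −0.63 in WT libraries, without overlap.

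In a fit with that index as a covariate, Lyz2 had a log2 fold change of 1.09 (adjusted p = 0.000412), S100a4 of 0.93 (0.00122), Tmem176a of −0.91 (0.00719) and Tmem176b of −0.74 (0.00796). With Treml4 and Emr1, 6 of the 8 called members passed in that fit, and Cd14 and Fn1 did not. The index and genotype are not separate in these libraries, so their parts in the Cd14 and Fn1 values cannot be told apart.

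**Figure D5:**
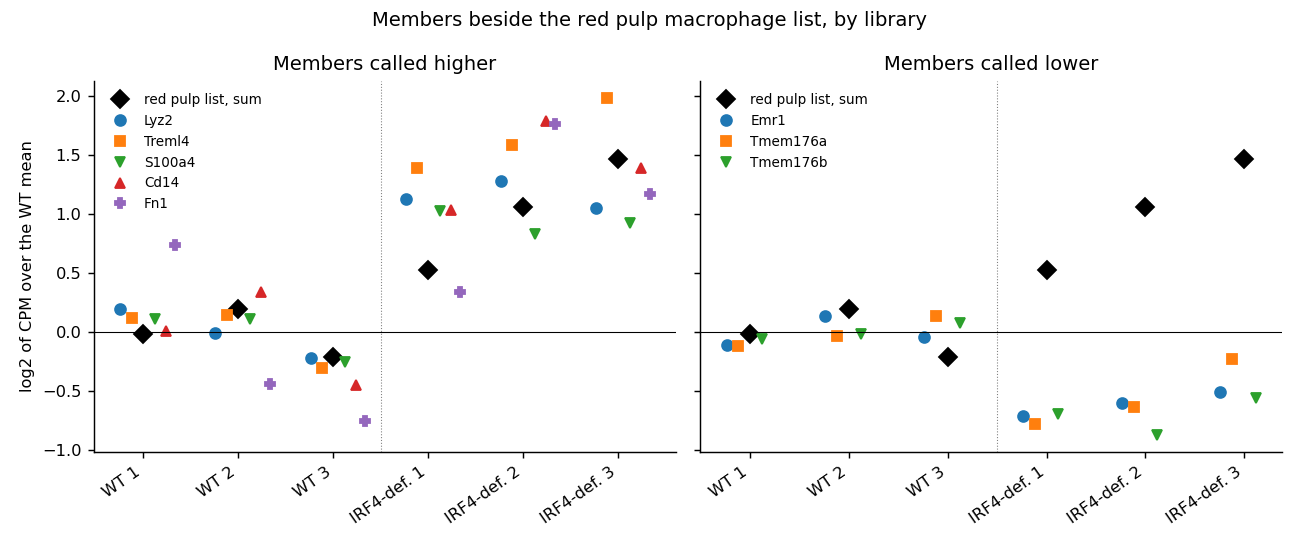
Log2 of CPM over the WT mean for the summed red pulp macrophage list (black diamonds) and for the called members, by library. The red pulp sum spreads widely over the IRF4-deficient libraries, 1652 to 3158 CPM, while Lyz2 (833 to 980 CPM) and S100a4 (746 to 854 CPM) do not follow its order and Treml4, Emr1 and Tmem176a do. Emr1, Tmem176a and Tmem176b lie below 0.

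For 4 members the genes of most similar profile over the 6 libraries were found among 3877 genes (3878 for Cd36) with a mean of at least 50 CPM, by the root mean square difference of centred log2 CPM. Closest to Lyz2 was Rara, a retinoic acid receptor, at 0.079, with 148, 148 and 148 CPM in IRF4-deficient and 75.5, 61.1 and 56.4 CPM in WT libraries. Iqgap2 (0.109) and AB124611 (0.112) followed. Closest to Treml4 were Mndal, an interferon-inducible gene (0.132), Smpdl3a, a phosphodiesterase (0.138), and Cd33, a myeloid lectin (0.154).

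Emr1 had the closest match of the 4, Tnfrsf1b, which encodes TNF receptor 2, at 0.032. Tnfrsf1b read 149, 170 and 173 CPM in IRF4-deficient and 225, 279 and 237 CPM in WT libraries. Sat1 (0.048) and Tbc1d5 (0.054) came after it. Cd36, with its wide spread within groups, had no comparably near profile, and its nearest were Bmyc (0.195), Oas3 (0.204) and Nr4a1 (0.205). These distances describe 6 libraries that share 1 contrast, and carry no test.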

How the data were processed

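RNA of spleen cDC2s was sequenced in 3 IRF4-deficient and 3 WT libraries. The authors deposited raw counts per gene symbol, whole numbers that were not normalized; STAR, HTSeq and DESeq2 and the build mm10 are named, per the submitters' processing notes. The sources used here give neither strand setting nor annotation. WT columns were matched to sample titles through the labels' source names, and 0 columns were left unused. Replicates differed beyond counting noise (chi-square per degree of freedom 7.66 to 15.9, from genes that reach 20 counts in the pair), and no library was merged with another.

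Genes were filtered with filterByExpr, which kept 11934 (7 rows were 0 throughout), scaled by TMM and tested with edgeR 4.0.16 (glmQLFit with robust shrinkage, glmQLFTest, R 4.3.3), two-sided, with Benjamini-Hochberg adjustment over all tested genes. Fold changes carry a prior count of 0.125, and fold differences in the text are ratios of mean CPM. The common biological coefficient of variation was 0.156, on 4 residual degrees of freedom, and the steps were tested on simulated data. Log2 ratios within a library, with 0.5 added to each count, were compared by exact permutation of 20 regroupings. The interval on a ratio of pooled counts is exact binomial.

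The members, the gene lists, the red pulp index and the tests were chosen with earlier results of these data known. Named are all members, from each monocyte and partner list up to 4 tested genes with the smallest p and any with mean CPM of 50 or more, defining markers, overlapping neighbours, and the 3 nearest profiles of 4 members. Outside this rule, and so chosen after their values were seen, are Tlr4, Ly96 and list genes named because a count of 5 or fewer was spelled out. Emr1, Emr4, Cd97, Sfpi1 and Chi3l3 are older symbols, matched to GENCODE M21 (GRCm38, which mm10 represents) and to RefSeq. Alternatives were DESeq2 1.42.0, DESeq2 size factors, upper-quartile factors, no filter, 5 CPM in 3 libraries, limma-voom (limma 3.58.1), a replicate block, no robust shrinkage, removal of Rn45s and Malat1, a red pulp covariate, and leaving out each library. A few tested list genes enter the counts and are not reported here by name.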

Additional observations from a re-analysis of the deposited data

How the results depend on the processing

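Each member was refitted under 16 alternatives, 6 of them leaving out 1 library, and 147 of 159 values kept their direction and their side of the threshold. Of the other 12, 10 belong to Fn1, whose adjusted p was 0.0501 with DESeq2 size factors, 0.0508 with upper-quartile factors, 0.0538 with the 5 CPM filter and 0.0559 with limma-voom, and 2 to Cd14 and Cd36 as given above. Ly6c2 had no value under the 5 CPM filter. Without single libraries, 868 to 1157 genes were called higher and 911 to 1274 lower, with 4 to 6 members higher, 3 lower in each fit, and 1 to 2 non-classical monocyte genes lower. The largest drops in calls over all genes came without WT library 2 or 3. With the red pulp index, 402 genes were called higher and 458 lower, 3 members higher, and 1 classical monocyte gene lower, and the log2 fold change of Tlr4 turned to −0.29. Why the counts fell was not tested, beyond that this fit has 1 residual degree of freedom fewer. No label ties equal replicate numbers to 1 animal or day, and same-numbered libraries did not deviate together (correlations of −0.005, 0.051 and −0.011), so the numbers do not pair the libraries. With the replicate number as a block, 1090 genes were called higher and 1177 lower, and 4 and 3 members, Fn1 having an adjusted p of 0.0881. Counts were few for Ly6c2, Cd14 and Fn1, 36, 124 and 130 over the WT libraries, though the counting intervals of the Cd14 and Fn1 ratios, 2.07 to 3.15 and 1.87 to 2.83, lie clear of 1.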
